A study of Homo sapiens with 5 samples.

Results

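WBP11 is a nuclear protein of the spliceosome, and its removal by an auxin degron was compared here with an auxin control by intron retention in DLD-1, an established human line from a colorectal adenocarcinoma. The comparison covers every intron whose mean read depth plus spliced reads reached at least 10 in both libraries. That left 21828 introns in 6789 genes of the 22471 introns listed for this pair, and 34560 introns were listed in the series as a whole. The library of WBP11 depletion (WBP11_Auxin) and its control (Control_Auxin) both came from polyA RNA of cells with the genotype label DLD-1 LacZeo osTIR1, treated with 500 µM auxin for 48 h. OsTIR1 is a plant auxin receptor that hands degron-tagged proteins to the ubiquitin system when auxin is present. The series' design text, not the sample label, gives the depleted cells a tagged WBP11 transgene over a knockout of the endogenous gene. The labels do not say whether either line was 1 clone, and untreated degron cells were not analysed here. An effect of the line and an effect of losing WBP11 cannot be told apart. Each side is 1 library, so no difference has a replicate check, and all intervals are 95% intervals for counting error within these libraries.

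Introns are removed from pre-mRNA by the spliceosome, which recognises a GT at the 5′ end of the intron and a branch point, a pyrimidine stretch and an AG towards its 3′ end. WBP11 joins the spliceosome around its activation and binds protein phosphatase 1 and PQBP1. Very short introns bring the sites that the spliceosome must bind close together. An intron that is left in can hold the transcript in the nucleus or add a premature stop codon.

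The retention ratio sets the depth over an intron against that depth plus the spliced reads, and is given below as a percentage of retention. "Rose" or "higher" means a difference of at least 10 percentage points between the depleted and the control library, and "fell" or "lower" the reverse. By this measure 3015 introns in 1752 genes rose, 13.8% of those measured, and 298 fell, 1.37%. The introns that rose most were short, between 69 and 90 bases, and all 11 reported here lay between coding exons.

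The sequences of 7 of these introns could be read, in whole, from annotated GENCODE release 29 transcripts that keep them (build GRCh38). They are shown to make visible how little sequence lies between the 2 splice sites. The GT at the 5′ end and the AG at the 3′ end are in capitals.
CNOT11 intron 6, chr2:101269137-101269215, plus strand: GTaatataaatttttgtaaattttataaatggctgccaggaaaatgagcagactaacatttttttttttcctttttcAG
ATP13A1 intron 5, chr19:19656917-19656993, minus strand: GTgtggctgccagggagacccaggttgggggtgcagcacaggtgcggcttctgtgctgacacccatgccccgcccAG
PGM2 intron 9, chr4:37847112-37847201, plus strand: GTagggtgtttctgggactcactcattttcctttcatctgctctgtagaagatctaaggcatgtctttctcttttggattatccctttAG
RHOT2 intron 13, chr16:672003-672083, plus strand: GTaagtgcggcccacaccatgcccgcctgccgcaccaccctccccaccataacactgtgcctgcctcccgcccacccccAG
COPS6 intron 7, chr7:100091153-100091237, plus strand: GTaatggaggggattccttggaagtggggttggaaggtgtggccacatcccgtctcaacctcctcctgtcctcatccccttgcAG
DHPS intron 6, chr19:12679544-12679622, minus strand: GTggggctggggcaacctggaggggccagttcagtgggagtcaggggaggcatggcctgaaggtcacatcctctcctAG
AP1G2 intron 13, chr14:23563503-23563583, minus strand: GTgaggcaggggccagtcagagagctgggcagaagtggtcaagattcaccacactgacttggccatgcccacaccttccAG

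Introns of at most 100 bases in the same genes that did not rise are set beside them. These are 2 from RHOT2 and 1 from ATP13A1, again with the splice site dinucleotides in capitals.
RHOT2 intron 2, chr16:668412-668487, plus strand: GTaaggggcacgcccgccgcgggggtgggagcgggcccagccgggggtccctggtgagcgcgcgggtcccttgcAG
RHOT2 intron 10, chr16:671001-671082, plus strand: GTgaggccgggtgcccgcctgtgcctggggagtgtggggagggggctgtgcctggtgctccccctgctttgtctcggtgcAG
ATP13A1 intron 21, chr19:19647326-19647413, minus strand: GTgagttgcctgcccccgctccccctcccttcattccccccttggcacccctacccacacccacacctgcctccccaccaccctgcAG

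The 7 introns that rose ranged in GC content from 25.3% in CNOT11 to 70.4% in RHOT2, and held 13 to 19 pyrimidines among the 20 bases before the AG. The 3 that did not rise had 69.3% to 80.3% GC and 11 to 16 pyrimidines in the same window. The ranges overlap, and 10 introns chosen for their retention do not show what separates them. A wider reading of intron sequence was not made, because only 16.0% of the measured introns, and 29.1% of those up to 100 bases, lie inside an annotated exon of another transcript.

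Retention in these 11 introns was 1.22% to 13.7% in the control and 75.6% to 90.9% in the depleted library. OSBP, which carries sterols between membranes, had 83.5% retention at its last intron in the depleted library (interval 80.3 to 86.2) against 1.22% in the control (0.474 to 3.11). The 79-base last intron of CNOT11, a subunit of the CCR4-NOT deadenylase, stood at 90.9% against 10.5% in the control. PGAP6, a GPI-anchor phospholipase, had 82.5% against 5.06% at a 69-base intron. At OSBP, CNOT11 and PGAP6 the lower bounds of the difference were 78.6, 72.2 and 72.4 points.

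Several of the others serve membranes and organelles. ATP13A1, an endoplasmic reticulum ATPase that removes misplaced transmembrane helices, had 87.1% retention (82.6 to 90.7) at intron 5 against 12.3% (8.02 to 18.4). Its intron 21, shown above, had 3.85% against 2.57%. RHOT2 encodes Miro2, a GTPase of the outer mitochondrial membrane that moves mitochondria. Its intron 13 stood at 85.2% (81.5 to 88.3) against 11.2% (8.56 to 14.5), while intron 10 stood at 47.2% against 54.3% and intron 2 at 1.69% against 7.36%. Within RHOT2, short introns of the same transcript thus went in both directions, the drops at introns 2 and 10 staying under 10 points. HGS, which sorts ubiquitinated cargo on endosomes, had 87.2% against 13.7% at a 72-base intron. ATP11B, a phospholipid flippase, had 75.6% against 2.34% at a 76-base intron. AP1G2, a gamma adaptin of the AP-1 coat, had 84.3% against 13.1% at intron 13.

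The remaining 3 of the 11 have separate roles. COPS6, a subunit of the COP9 signalosome, which removes NEDD8 from cullins, had 75.7% (71.2 to 79.8) at intron 7 against 2.01% (1.21 to 3.34). DHPS, which starts the hypusine modification of translation factor eIF5A, had 81.2% against 7.52% at intron 6. PGM2, a phosphopentomutase of nucleoside breakdown, had 77.9% against 3.38% at intron 9. The CNOT11 and PGM2 introns carry the deposited flag for overlap with an annotated exon. Every intron printed above as a sequence also lies inside an annotated exon of another transcript, so reads of such transcripts count as retention.

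**Figure D1:**
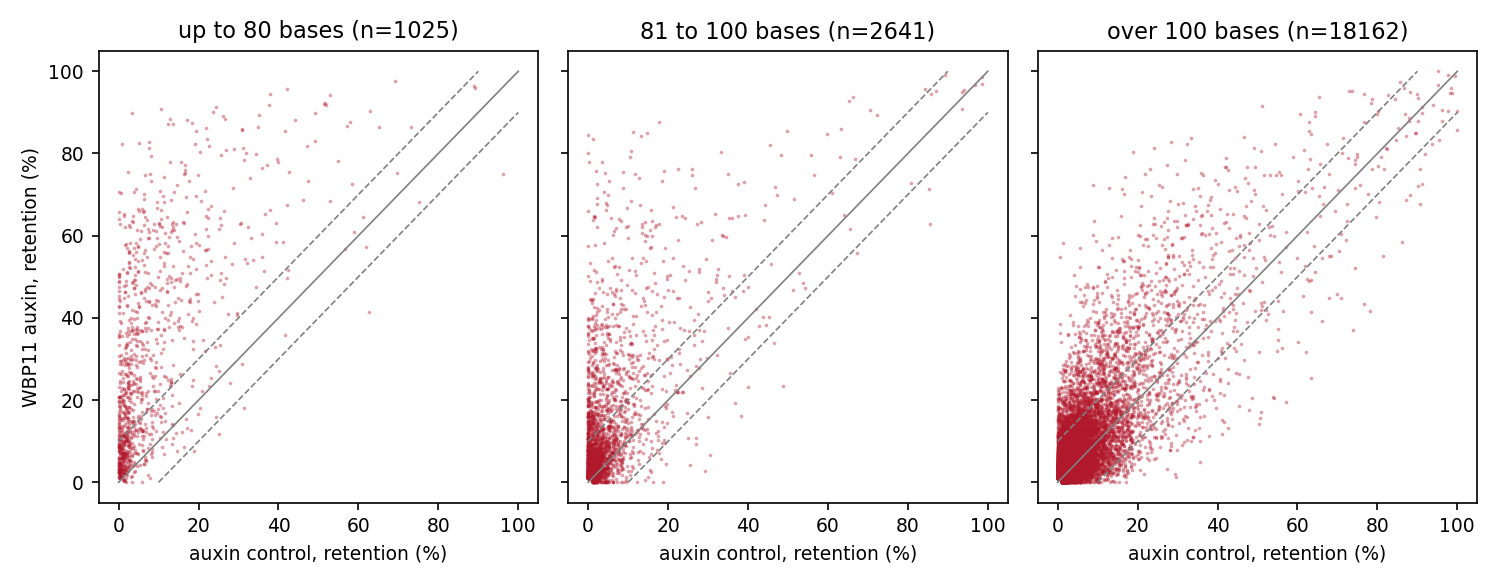
Retention of each measured intron in the auxin control (x axis, percent) and in the WBP11 auxin library (y axis, percent), 1 point per intron, in 3 panels by intron length. The solid line marks equality and the dashed lines 10 points to either side; introns up to 80 bases lie mostly above the upper dashed line, and those over 100 bases mostly between the dashed lines.

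Over all 21828 introns, 72.8% had more retention in the depleted library. The median difference was 1.45 points, with quartiles at -0.193 and 4.92 points, and the 95th percentile stood at 23.6 points. Rises of at least 30 points numbered 713 and rises of at least 50 points 189, against 13 falls of at least 30 points. In the depleted library 737 introns exceeded 50% retention, compared with 220 in the control. Around the limit of 10 points, 264 introns rose by 10 to 11 points and 318 by 9 to 10 points. The depleted library was the deeper of the pair, with 4927556 spliced reads over listed introns against 4276828 and a median depth plus spliced reads of 125 against 98.8.

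Intron length ordered the response. Of 1025 introns up to 80 bases, 64.7% rose (exact binomial interval 61.7 to 67.6, counting introns), and their median retention was 24.6% against 4.03% in the control. Between 81 and 100 bases 29.3% of 2641 introns rose, with medians of 7.22% and 2.08%. The share was 12.9% at 100 to 200 bases, 12.5% at 200 to 500, 7.73% at 500 to 1000, 6.93% at 1000 to 2000 and 4.18% over 2000 bases, where the medians were 2.70% and 1.24%. Falls had another distribution, with 0.488% of introns up to 80 bases lower, 2.33% of those at 100 to 200 bases and 0.313% of those over 2000 bases. Introns that rose had a median length of 109 bases, those that fell 283.5 bases and those that did neither 626 bases. Up to 100 bases were 47.7% of the introns that rose, 10.1% of those that fell and 11.9% of the rest.

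In steps of 5 bases the share dropped in each class up to 95 bases. All 3 introns of 65 bases or fewer rose. The share was 83.1% at 66 to 70 bases (54 of 65 introns), 74.2% at 71 to 75, 58.2% at 76 to 80, 40.8% at 81 to 85, 28.2% at 86 to 90 and 19.7% at 91 to 95. It was 20.7% for 96 to 100 bases, and between 12.5% and 13.6% in the 4 classes from 100 to 200 bases. The shortest introns also had more retention in the control, with a median of 12.9% at 66 to 70 bases and 2.09% at 81 to 85 bases, so the 2 properties run together here.

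The table lists only introns that reached at least 1% retention in 1 of the libraries. Of the annotated introns, 66.1% up to 80 bases and 12.9% over 2000 bases were measured. How far the 1% limit and how far depth left introns out was not separated. Set against every intron of the annotated transcripts used, the rises came to 42.8% of 1550 introns up to 80 bases, 17.5% of 4407 at 81 to 100 bases, 5.29% of 7845 at 100 to 200 bases and 0.536% of 33931 over 2000 bases. The order by length was the same with this denominator, and it counts an intron that was not listed or not deep enough as not risen.

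**Figure D2:**
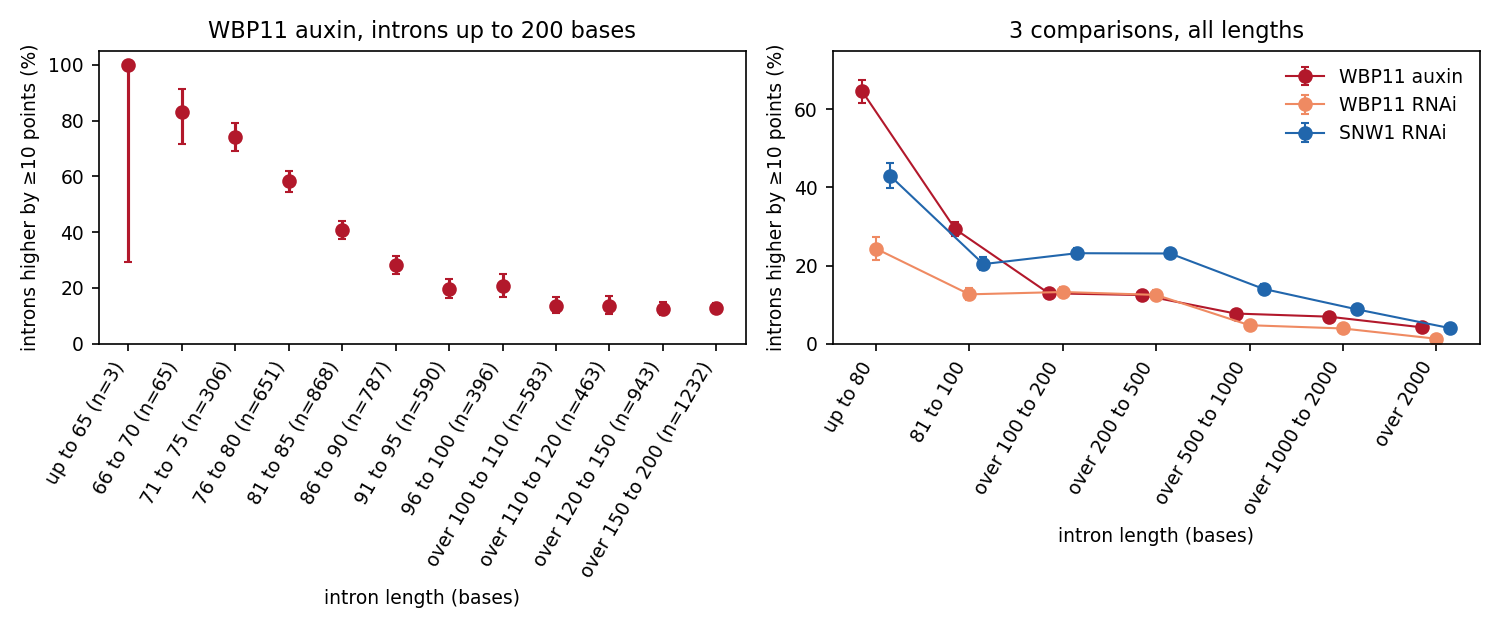
Left, percentage of introns up to 200 bases that were higher by at least 10 points after WBP11 auxin, by length (x axis, bases, number of introns in brackets). Right, the same percentage over all lengths for WBP11 auxin, WBP11 RNAi and SNW1 RNAi, slightly offset for legibility; bars are exact binomial 95% intervals that count introns, and the WBP11 auxin share drops from 83.1% at 66 to 70 bases to 12.7% at 150 to 200 bases.

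GC content of the flanking exons, taken over 50 bases on either side, moved with retention in the longer introns and not in the same way in the short ones. Over all lengths 9.71% of introns rose where flanking GC was up to 40%, 8.15% at 40 to 50%, 14.5% at 50 to 60%, 20.7% at 60 to 70% and 21.8% above 70%. Among introns of 200 to 500 bases the share climbed from 2.54% at up to 40% GC to 17.1% at 60 to 70% GC. Up to 80 bases the order was turned around, with 79.6% of 93 introns rising at up to 40% GC and 51.4% of 35 above 70%. In every GC class a larger share rose up to 80 bases than at 200 to 500 bases.

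Over all lengths, position in the transcript went with smaller differences than length did. First introns rose in 8.65% of cases, inner introns in 14.6% and last introns in 10.2%. Among introns up to 100 bases these shares were 26.0% (20 of 77), 39.6% and 39.1%. Introns between coding exons rose in 13.9% of cases and fell in 1.23%. The 197 introns in 3′ untranslated regions rose in 11.7% and fell in 7.11%. Introns with the deposited flag for overlap with an annotated exon, 890 of those measured, rose in 24.8% and fell in 6.74%. The others rose in 13.3% and fell in 1.14%. The flag is narrower than lying whole inside an annotated exon, which held for 3502 measured introns, so the others include some of these. Introns already retained at 30 to 60% in the control rose in 45.8% and fell in 20.4%, and the 155 introns above 60% rose in 23.2% and fell in 27.1%. The control retention of 18909 introns, 86.6% of those measured, was under 10%, so they could not fall by 10 points.

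Long introns were not exempt. The largest rise over 2000 bases was at intron 10 of TRAPPC8, a subunit of the TRAPP complex of vesicle tethering. This 3033-base intron had 38.6% retention (29.1 to 49.0) against 0.470% in the control (0.0430 to 4.94). SH3RF2, a RING-type ubiquitin ligase, had 53.8% against 16.5% at a 6735-base intron. PUS7, a pseudouridine synthase, had 45.0% against 13.6% at a 7166-base intron. NDUFA10, a subunit of respiratory complex I, had 35.1% (28.8 to 42.0) against 5.93% (3.98 to 8.74) at a 3042-base intron. MAN2B2, a lysosomal mannosidase, had 48.4% against 21.0% at a 2434-base intron that overlaps an annotated exon. For all 5 the interval of the difference lay above 0, but they were picked as the largest rises of this length.

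The 6 largest falls reported were in introns of 163 to 2986 bases. USP39, a protein of the U4/U6.U5 tri-snRNP, had 37.0% retention at its last intron (chr2:85648854-85649016, 163 bases, 3′ untranslated region) against 73.8% in the control. PRPF4B, a kinase that phosphorylates spliceosomal proteins, had 41.6% against 78.1% at intron 14, which also lies in the 3′ untranslated region. Another such intron of PRPF4B, intron 18, rose from 46.6% to 64.8%, with an interval of the difference that included 0 (-0.0819 to 35.1 points). HNRNPA1, an abundant nuclear RNA-binding protein that represses splice sites, had 20.5% (16.9 to 24.7) against 54.0% (47.8 to 60.2) at its last intron, again in the 3′ untranslated region. The last gene has many processed copies in the genome, so the placement of its reads is uncertain. All 3 introns overlap annotated exons.

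Of the other 3, SMPD4BP, a noncoding relative of the sphingomyelinase gene SMPD4, had 20.6% against 53.8%. Its reads may be shared with SMPD4. MRNIP, which stabilises the MRN complex at DNA breaks, had 31.7% against 62.0% at a 2986-base intron. ZNF316, a zinc finger gene, had 11.8% against 41.0% at an intron of the 5′ untranslated region. Each of the 6 falls had an interval of the difference below 0, but they were picked as the largest falls.

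Genes with many measured introns usually had some that rose and others that did not. Of the 6789 genes, 5037 had no intron higher, 1142 had 1, 328 had 2, 141 had 3, 60 had 4 and 81 had at least 5. Both directions occurred in 110 genes. Among the 1462 genes with at least 5 measured introns only THOC6, a subunit of the THO complex that couples transcription to mRNA export, had every intron higher. Its 10 introns were 74 to 102 bases long, and their differences ran from 10.4 to 62.2 points with a median of 29.4. At its 76-base intron 6 retention was 77.8% against 15.6%.

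Neighbouring introns of a gene rose together more often than others. Where the first intron of an adjacent pair rose, the next also rose in 35.0% of 1319 pairs, compared with 13.6% of 6034 pairs whose first intron had not risen. With both introns up to 100 bases the shares were 52.8% and 31.3%, and with both over 100 bases 25.5% and 7.97%. Neighbours share transcripts, reads and base composition, and no test was made.

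The 6 genes with most introns higher each had from 10 to 18 measured introns of up to 100 bases, and longer ones among their rises. COL7A1, the anchoring fibril collagen, had 27 of 42 measured introns higher and none lower, with a median difference of 14.4 points. Of these rises 10 were among its 11 introns up to 100 bases and 17 among its 31 longer ones. Over all genes 39.2% of introns up to 100 bases and 8.69% of longer ones rose. In COL7A1 the 72-base intron 65 stood at 66.1% against 6.45%, and the 80-base intron 74 at 49.0% against 1.89%. The 722-base intron 91 stood at 69.6% against 35.5%. NBEAL2, which takes part in granule formation in platelets, had 16 of 35 higher, among them the 82-base intron 31 at 62.8% against 13.4%. Longer introns made up 10 of these 16 rises. SBF1, a pseudophosphatase of the myotubularin family, had 13 of 22 higher, led by the 77-base intron 27 at 60.9% against 13.2%.

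The other 3 include a pair of basement membrane proteins. AGRN, the proteoglycan agrin, had 12 of 23 introns higher, with the 71-base intron 16 at 61.5% against 8.51% and the 80-base intron 5 at 58.0% against 10.0%. LAMB2, a laminin beta chain, had 12 of 27 higher, with the 70-base intron 32 at 69.7% against 19.2%. A longer intron of LAMB2, intron 12 of 279 bases, stood at 74.7% against 36.4%. MAMDC4, an apical endosomal glycoprotein, had 12 of 20 higher, with the 68-base intron 19 at 92.3% against 51.6%. No intron of these 6 genes fell by 10 points, but the genes were picked for their rises and only 1.37% of all introns fell.

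**Figure D3:**
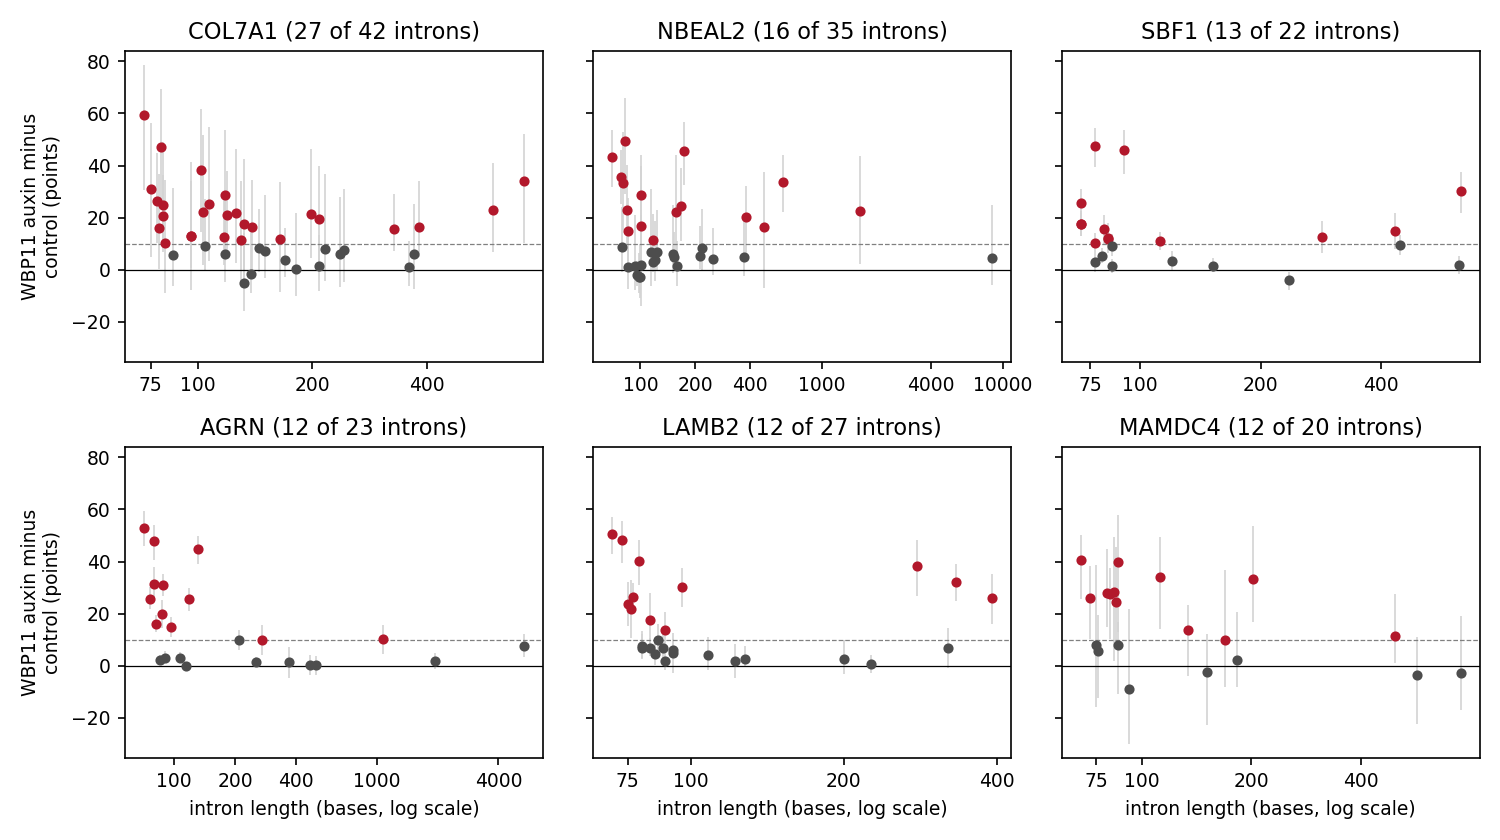
Difference in retention (y axis, WBP11 auxin minus control, percentage points) against intron length (x axis, bases, log scale) for the 6 genes with most introns higher, 1 point per measured intron, with Newcombe 95% counting intervals as grey bars. Red points are higher by at least 10 points (dashed line); the highest points of COL7A1, AGRN, LAMB2 and MAMDC4 lie at 68 to 72 bases.

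TUBGCP6 and CDCA5 are cell division genes, the first coding for a gamma-tubulin ring subunit and the second for sororin, which protects sister chromatid cohesion. TUBGCP6 had 8 of 15 introns higher. Its largest rise was at intron 20, of 170 bases, from 16.8% to 74.4%. The 71-base intron 23 went from 41.7% to 85.6%, and intron 18, of 187 bases, from 22.3% to 59.3%. In the same gene the 82-base intron 21 stood at 1.27% against 1.52%, so its short introns did not all rise. Spliced reads over the listed introns of TUBGCP6 numbered 802 against 1326, which is 52.5% of control (interval 48.0 to 57.3) once set against the total of each library. CDCA5 had 3 of 4 introns higher, including the 78-base intron 2 at 26.6% against 3.01%, while its spliced reads stood at 150% of control (139 to 163). WBP11 itself had a single listed intron, in its 5′ untranslated region, with 3.01% retention against 0.248%, and 103 spliced reads against 235.

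Spliced reads that join exactly the 2 listed ends of an intron, as a share of the spliced reads at that intron, show whether other splice sites were used. Of 21524 introns with at least 10 spliced reads in both libraries, 1275 had an exact share lower by at least 10 points, 5.92%, and 156 had it higher, 0.725%. With the number of spliced reads recovered from the deposited ratio and depth, which 14232 introns allowed, the share lower was 11.05%. This smaller set holds only introns with a depth of at least 1 in both libraries. The share from the deposited spliced reads is not given for it, so 11.05% and 5.92% do not compare directly. Over all listed introns the exact share was 98.0% in the depleted library and 99.0% in the control. By length the lower share was most frequent at the extremes, 10.5% up to 80 bases and 8.04% over 2000 bases, and 3.85% at 100 to 200 bases. Of the introns that rose in retention 12.1% had a lower exact share, and of those with neither change 4.96%. IRFinder's warning of a minor isoform was set for 916 introns in the depleted library and 137 in the control.

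ESRP2, an epithelial splicing regulator, had the largest drop. At its 82-base intron 8, 42 of 193 spliced reads were exact (21.8%) in the depleted library, against 370 of 399 (92.7%) in the control. Retention of the same intron was 30.03% against 12.2%. WASHC5, a subunit of the WASH complex on endosomes, had 32.8% exact reads against 96.8% at a 2508-base intron whose retention was 5.61% against 1.52%. CRACR2B, a regulator of calcium entry, had 27.1% against 88.2%, with retention lower, at 13.1% against 35.4%. The 3 examples therefore pair a lower exact share with higher, little changed and lower retention.

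FASTK, a mitochondrial RNA-binding protein, had 27.4% exact reads at its 80-base last intron against 87.9%. PKD1, the gene of polycystin 1, had 36.8% against 92.6% at its 77-base intron 33. Copies of that gene lie nearby on the chromosome, so its reads are placed with uncertainty. MMS22L, which acts in repair of stalled replication forks, had 41.1% against 95.8% at a 2711-base intron. Exact shares went the other way in NF2, the gene of the tumour suppressor merlin, with 82.5% against 24.0% at its 13150-base last intron. ARHGEF11, a guanine nucleotide exchange factor, had 79.7% against 26.2%, EXOC7, an exocyst subunit, 95.7% against 49.0%, and MORC4, a chromatin ATPase, 79.2% against 40.6%. All 6 drops and 4 gains had intervals of the difference away from 0. They were picked for the size of that difference, so the intervals add no separate support.

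Spliced reads summed over the listed introns of a gene and set against the total of the library give a rough level of spliced transcript, over the listed introns only. Of 6555 genes with at least 50 reads in the pair, 690 were at least 2-fold higher, 10.5%, and 492 at least 2-fold lower, 7.51%. The median gene stood 0.11 higher on the log2 scale, and with the median gene set to no change the split became 537 higher and 620 lower. In bulk RNA, fewer cells of a kind and less RNA per cell cannot be told apart. The median log2 ratio was 0.18 in genes with no intron higher, -0.0043 in those with 1, -0.24 in those with 2 and -0.43 in those with 3 or more. In the same order 4.59%, 12.2%, 19.6% and 23.5% of them were at least 2-fold lower. From introns that did not change in retention alone, the medians were 0.13, 0.16, -0.09 and -0.33, and the shares at least 2-fold lower were 5.21%, 8.94%, 11.4% and 14.9%. Spliced reads also enter the retention ratio that defines a higher intron, so the 2 measures are not independent. With unchanged introns alone the genes were still grouped by that ratio.

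CYP1A1, a cytochrome P450 that responds to the aryl hydrocarbon receptor, had 1882 spliced reads against 104, 15.7-fold higher (12.9 to 19.3). UGT1A1, the bilirubin glucuronosyltransferase, had 451 against 41, although the genes of the UGT1A locus share exons. ANGPTL4, an inhibitor of lipoprotein lipase, had 198 against 18, also 9.55-fold higher. OVGP1, an oviduct glycoprotein, NDRG1, a stress-responsive gene, DDIT3, the stress transcription factor CHOP, and GNAI1, an inhibitory G protein subunit, were 7.32-fold to 9.01-fold higher. These 7 genes had 0 to 2 introns with higher retention each.

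MUC5AC, a secreted gel-forming mucin, had 8 spliced reads against 533, 1.30% of control (0.560 to 2.59). SEMA3F and SEMA3B, secreted semaphorins, had 22 against 209 and 149 against 1183. ZDHHC8, a palmitoyltransferase, had 81 against 588 with no intron higher. TMEM129, a ubiquitin ligase of the endoplasmic reticulum, had 35 against 243 with both listed introns higher, and MAMDC4 had 202 against 1301 with 12 of 20 higher. NUDT8, a mitochondrial hydrolase, stood at 13.7% of control. Among these 7 genes, from 0 to 12 introns had risen. Epithelial and intestinal markers, of which 11 of 20 genes were listed, had 23201 spliced reads against 34679 in sum, 58.1% of control once set against the library totals. KRT18 alone had 11963 against 22362, and without it the sum was 79.2% of control. ESRP1 was at least 2-fold higher, ESRP2, KRT18, CLDN7 and CDH17 were at least 2-fold lower, and the other 6 lay between 0.602-fold (CDX2) and 1.48-fold (TJP3). None of 20 fibroblast and leukocyte markers was listed. The part of such marker differences in the other results was not tested.

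**Figure D4:**
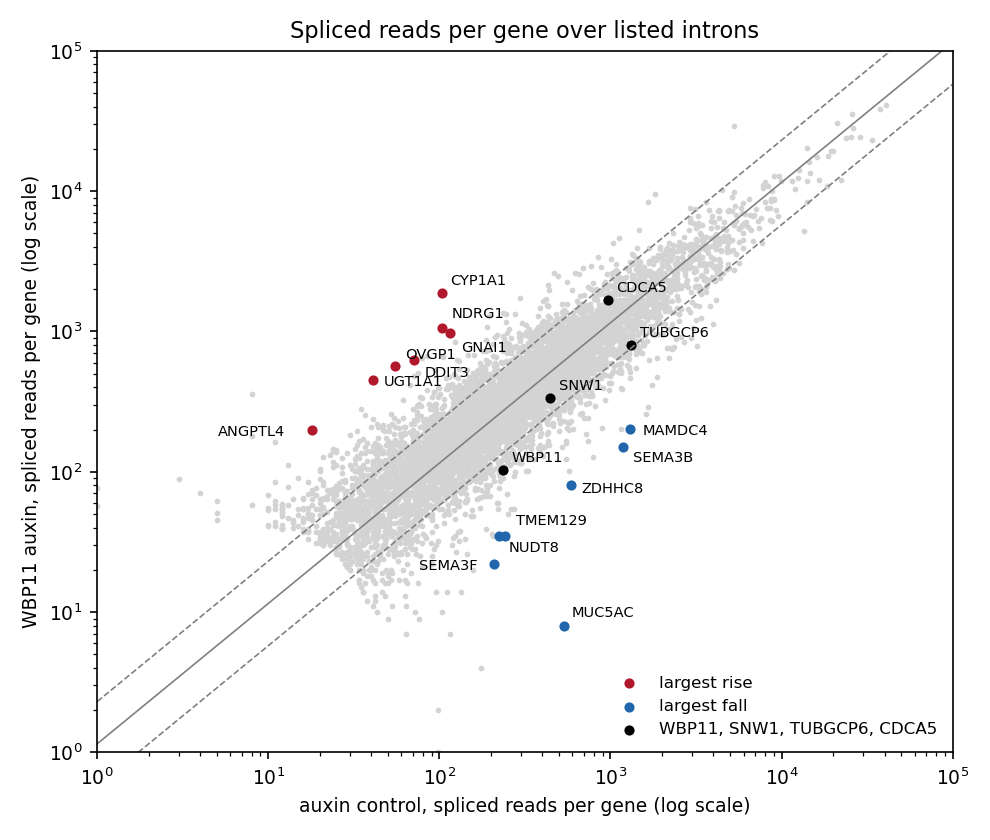
Spliced reads per gene summed over listed introns in the auxin control (x axis, log scale) and in the WBP11 auxin library (y axis, log scale), 1 grey point per gene with at least 50 reads in the pair; a gene with 0 reads is drawn at 1. The solid line marks equal shares of the library total and the dashed lines 2-fold differences; CYP1A1 lies farthest above and MUC5AC farthest below among the named genes.

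Gene lists by function were read against the 13.8% of all introns that rose. In 16 of the 24 lists with measured introns the share was larger. Since length goes with retention, each list is given with its short introns, up to 100 bases, of which 39.2% rose over all genes. Among introns over 100 bases, of which 8.69% rose over all genes, the share was larger in nonsense-mediated decay, cohesion and epithelial marker genes. It was 11.3%, 15.2% and 15.4% there, and 8.24% or less in every other list.

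The list of THO, mRNA export and nuclear exosome genes had 19 of 95 introns higher and 1 lower, with 14 of 21 short introns higher. THOC6 held 10 of the rises, and without it 9 of 85 introns rose, 10.6%, 5 of 12 short ones among them. ZFC3H1, which hands polyadenylated RNA to the nuclear exosome, had 33.9% against 1.82% at an 85-base intron. Cleavage, polyadenylation and CCR4-NOT genes had 24 of 154 higher, 15.6%, and none lower, and 18 of 34 short introns rose. CPSF1, a cleavage factor subunit, had 87.6% against 17.6%. Nonsense-mediated decay and exon junction genes had 12 of 79 higher, 15.2%, and none lower, with 5 of 17 short introns higher. EDC4, a scaffold of mRNA decapping, had 64.6% (intron 19, 84 bases) against 1.79%, and XRN1, the cytoplasmic 5′ exonuclease, 36.2% against a listed 0.

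The spliceosome's own genes were uneven. SR proteins and their CLK kinases had 6 of 32 introns higher, 4 of 6 short ones among them, with CLK1 at 35.8% against 10.5%. U1 and U2 snRNP genes had 8 of 48 higher, 5 of them among 7 short introns, such as intron 18 of SF3B2 at 39.7% against 0.221%. Genes of the PRPF19 complex and the activated spliceosome had 16 of 133 higher and 2 lower, and 10 of 29 short introns rose. RBM5 stood at 83.6% against 22.1% in a 78-base intron and at 14.2% against 27.7% in a 2612-base intron. SNW1, of the same list, had 57.5% against 4.75% at its last intron. In the tri-snRNP list 2 of 45 rose and 2 fell, with 1 of 8 short introns higher. Among hnRNP genes 2 of 43 rose and 2 fell, and 2 of 15 short introns rose. Among these was the 56-base intron 7 of HNRNPH1, at 66.4% (depleted) against 4.73%. The other was in HNRNPH3, at 36.2% against 3.81%.

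Genes of chromosome segregation rose near or above the overall share. Kinesins and dynein had 28 of 142 introns higher and none lower, 20 of 35 short ones higher, including the 88-base intron 13 of KIF22, a chromosome-arm kinesin, at 67.6% against 12.9%. Sister chromatid cohesion genes had 20 of 106 higher, 6 of 14 short ones among them, with SGO1, the guardian of centromeric cohesion, at 44.3% against 0.821%, and 1 lower, in CHTF18. Genes of the anaphase-promoting complex and spindle checkpoint had 18 of 111 higher, with 11 of 26 short introns higher. For the centriole and centrosome the count was 24 of 169 introns, 14.2%, and 13 of 23 short ones. CEP131 stood at 77.2% against 16.7% and HAUS5, an augmin subunit, at 63.3% against 13.7%. The gamma-tubulin list had 9 of 64 higher, 8 of them in TUBGCP6, and 5 of its 9 short introns rose.

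DNA replication genes had 28 of 166 introns higher and none lower, 20 of them among 34 short introns. POLE, the leading-strand polymerase, had 86.2% against 21.8% at a 73-base intron, and RECQL4, a helicase, had 80.9% against 27.0%. In homologous recombination and Fanconi repair 26 of 166 introns rose and 2 fell, and 15 of 31 short introns rose. The nuclease gene MUS81 stood at 89.0% against 26.2% and EME1, its partner, at 7.80% against 29.9% in a 744-base intron. Histone lysine methylation enzymes had 38 of 274 higher and 6 lower, with 22 of 42 short introns higher. SETD1A, an H3K4 methyltransferase, had 75.4% against 8.74%.

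Translation and energy genes divided. Aminoacyl-tRNA synthetases had 17 of 87 higher and 2 lower, 14 of 23 short ones higher, with QARS1 at 37.7% against 3.40% and RARS2 at 37.6% against 1.65%. Proteasome genes had 12 of 80 higher, 9 of 17 short ones among them, with PSME1 at 36.2% against 4.37%. Cytoplasmic ribosomal protein genes had 1 of 34 higher, RPL10 at 21.7% against 6.90%, and 9 of their 10 short introns did not rise. Respiratory chain genes had 4 of 56 higher, 2 of them among 9 short introns. NDUFV1 stood at 62.2% against 13.5%. Vesicle tethers and coats had 35 of 269 higher and 5 lower, and 17 of 39 short introns rose. COG6, a Golgi tether, stood at 82.8% against 7.50% and EXOC7 at 15.2% against 41.1%.

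Stress genes are given by retention and by spliced reads. The integrated stress and unfolded protein response list had 8 of 73 introns higher, 3 of 10 short ones among them. Of its 26 genes 8 had at least 2-fold more spliced reads, against 10.5% of all genes, and none had 2-fold fewer, against 7.51%. Besides DDIT3, at 7.62-fold, these were the cystine transporter pair SLC7A11 (7.08-fold) and SLC3A2 (4.78-fold), ATF3 (5.28-fold), VLDLR (5.04-fold), the chaperone regulator DNAJC3 (3.41-fold), SESN2 (3.26-fold) and NUPR1 (2.17-fold). After WBP11 RNAi, in another pair of libraries, spliced reads were 0.392-fold for DDIT3, 0.534-fold for SLC7A11, 0.544-fold for VLDLR, 0.725-fold for ATF3, 1.17-fold for SESN2 and 2.14-fold for DNAJC3. The controls of the 2 pairs also differed. DDIT3 had 71 spliced reads in the auxin control and 422 in the control of WBP11 RNAi. In the same order SLC7A11 had 79 and 286, VLDLR 41 and 215, ATF3 24 and 459, SESN2 305 and 500 and DNAJC3 61 and 35. These counts were not scaled between libraries, and the introns listed for a gene can differ between pairs. The p53 target list had 4 of 60 introns higher, with 1 of 9 short ones. Of its 20 genes, 5 had at least 2-fold more spliced reads, PLK2 (3.59-fold), GDF15 (3.55-fold), SESN2, GADD45A (2.87-fold) and CDKN1A (2.71-fold), and 2 fewer, FDXR and DDB2. After WBP11 RNAi PLK2 stood at 2.04-fold, GDF15 at 1.47-fold, CDKN1A at 0.872-fold and GADD45A at 0.571-fold. Auxin control and RNAi control reads were 1118 and 1674 for PLK2, 1037 and 4899 for GDF15, 106 and 553 for CDKN1A and 292 and 1447 for GADD45A. DLD-1 cells carry a mutant p53, and SESN2 stands in both lists.

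**Figure D5:**
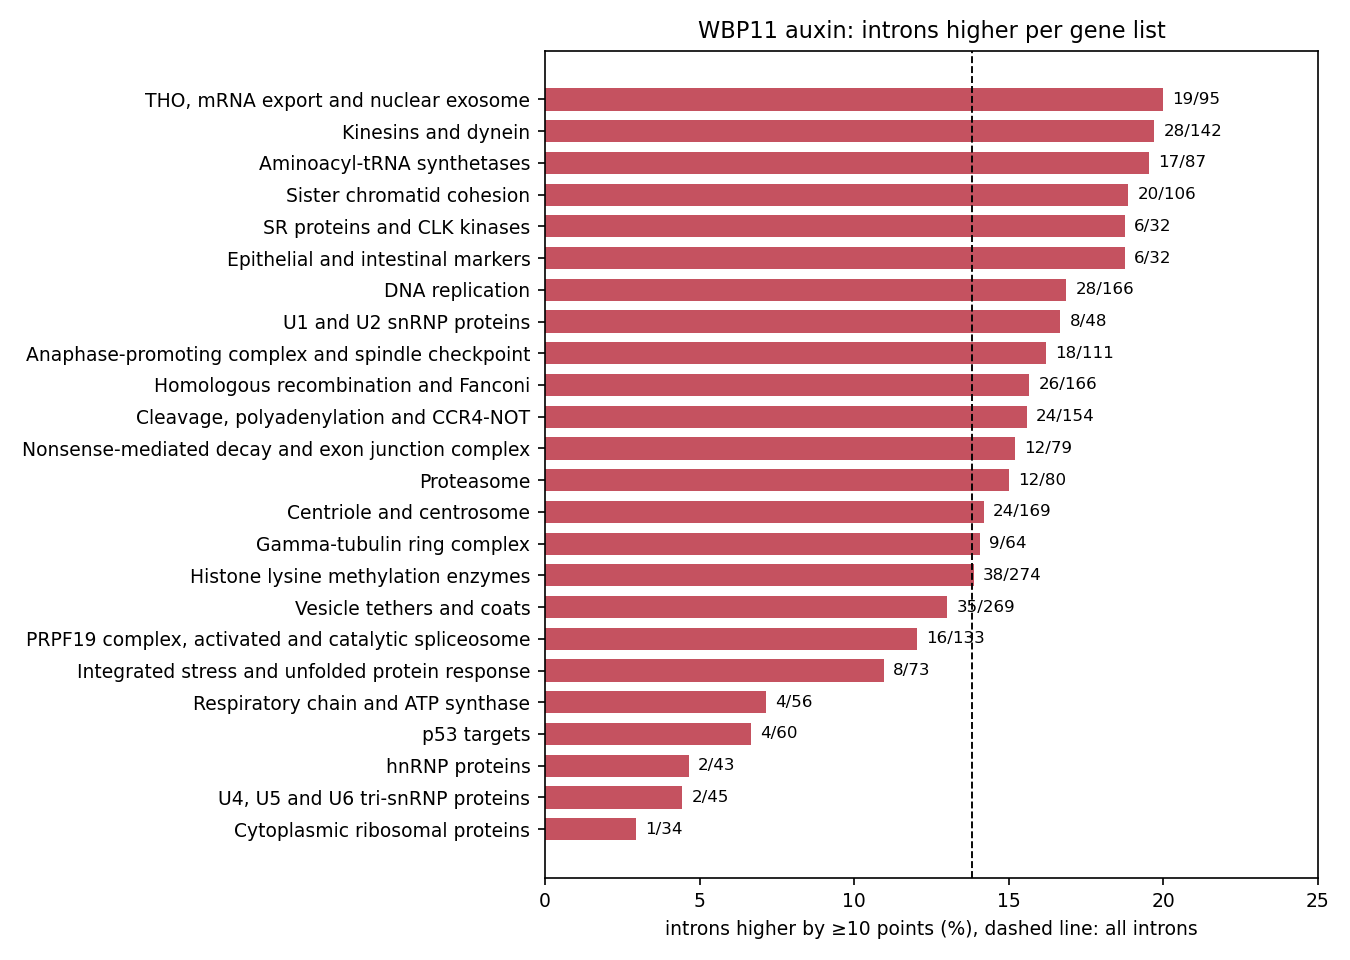
Percentage of measured introns higher by at least 10 points after WBP11 auxin (bars, x axis from 0) in each gene list (y axis), with the number higher over the number measured beside each bar. The dashed line is the 13.8% of all introns; the list with THO genes stands highest at 19 of 95 introns and the ribosomal proteins lowest at 2.94%.

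RNA interference against the same factor, 100 nM siRNA for 72 h in DLD-1 LacZeo cells, offers another view of the introns. The control library of this pair has no siRNA dose or time in its labels and is described as untreated, although a header names it Control_RNAi. An effect of siRNA treatment and an effect of losing the factor cannot be told apart. In that pair 9.07% of 16068 introns rose and 1.69% fell. Among the 10391 introns measured in both pairs, 2144 rose after auxin, 1082 after RNAi and 723 in both, which is 33.7% of the first and 66.8% of the second. Over all 10391 introns 20.6% rose after auxin and 10.4% after RNAi. Up to 80 bases 165 of the 177 introns that rose after RNAi, 93.2%, and 165 of the 523 that rose after auxin, 31.5%, rose in both. Of all 722 such introns 72.4% rose after auxin and 24.5% after RNAi. Opposite calls occurred in 43 introns, 21 higher and 22 lower after auxin. The ATP13A1 intron stood at 72.6% against 10.7% after RNAi, the CNOT11 intron at 55.6% against 5.49% and the OSBP intron at 25.8% against 0.319%. Among the introns with the largest falls, USP39 stood at 49.6% against 77.5% after RNAi, SMPD4BP at 23.5% against 61.4% and MRNIP at 22.9% against 34.8%, while PRPF4B intron 14 stood at 57.8% against 57.1%.

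Shares by length are set side by side for the 3 pairs. After WBP11 RNAi 24.3% of introns up to 80 bases rose, 12.6% at 81 to 100 bases and 13.2% at 100 to 200 bases. SNW1 RNAi, against the same control as WBP11 RNAi, had 16.6% of 23366 introns higher and 0.359% lower in all. Its shares higher were 43.0% up to 80 bases, 20.4% at 81 to 100 bases and 23.2% at 100 to 200 bases. The auxin pair has another control, line and treatment time than the RNAi pairs, and with 1 library a side a difference between pairs was not tested. A lower exact share was found in 3.04% of introns after WBP11 RNAi and 3.08% after SNW1 RNAi, against the 5.92% after auxin. Recovered spliced reads were used for the auxin pair only, so the 11.05% above has no counterpart here.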

How the data were processed

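Per the file headers, the authors compared 2 libraries at a time with IRFinder, from strand-aware output on STAR genome alignments to hg38. RSEM and bedtools also stand in the submitters' processing notes, with versions not given in the sources used here. Both the retention ratio and the covered share of an intron are deposited as a fraction. Intron depth is deposited as a coverage signal, the mean over measured bases. For each intron the deposited files also give a count of spliced reads, which was not scaled between libraries. Where depth was at least 1, the deposited ratio implied whole spliced reads (within 0.05 reads) in over 99.9% of introns, never below the deposited maximum and above it in 38.0% (depleted) and 28.8% (control). Spliced reads at the intron ends are therefore not the full denominator everywhere, which the planned wording assumed. The deposited p-values compare reads of 2 libraries and were not used.

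Retention ratios were used as deposited. Their Wilson intervals, and Newcombe intervals of differences, use the sum of depth and spliced reads as n. Gene ratios have exact intervals for 2 Poisson counts. The calls need at least 10 for depth plus spliced reads, 10 points for retention and exact share, and 2-fold for genes with at least 50 reads. They were tested on simulated data. Reads are not independent molecules, so all intervals and shares cover counting error only, at a median depth plus spliced reads of 125 and 98.8. No test was run, as each group had 1 library. Low-count introns, 643 of them, were left out. All introns matched GENCODE release 29, which gave intron numbers, position and exon sequence, and 24 rows had gene identifiers without a matching symbol. The members and the 25 gene lists were chosen with earlier results of these data known. Genes were named by a rule: the 4 study genes, the 12 largest rises and 6 largest falls among introns with at least 50 for depth plus spliced reads, the 6 genes with most introns higher, the 5 largest rises over 2000 bases, the 6 largest falls and 4 largest rises of the exact share, the 8 largest rises and falls of gene reads with at least 200 reads, and up to 2 rises and 1 fall per list. Of these 3 genes are not reported here. Other introns of named genes, and the contrast introns with sequences, were chosen after their values were seen. Alternatives were other depth minimums, sizes, centring and intron subsets. Added after seeing the data were classes of flanking GC, introns without warnings for length, the annotated denominator and recovered spliced reads. Python 3.11.15, pandas 2.3.3, NumPy 2.4.6, SciPy 1.17.1 and Matplotlib 3.10.9 were used.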

Additional observations from a re-analysis of the deposited data

Results flagged for a closer look

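Named introns and genes that differed in opposite directions after WBP11 auxin and WBP11 RNAi, by at least 10 points or 2-fold, are shown here by example. The 275-base intron 10 of CHTF18, of the sister chromatid cohesion list, differed by -18.6 points after auxin, 31.7% against 50.3%, and by 18.7 points after RNAi. Spliced reads of DDIT3 stood at 7.62 times control after auxin, 623 against 71, and at 0.392 times control after RNAi, 157 against 422. Intron 6 of CRACR2B, of 152 bases, differed by -22.3 points after auxin, 13.1% against 35.4%. After RNAi it differed by 17.2 points, 49.7% against 32.5%. The difference between the pairs was not tested in any of these cases, and each rests on 1 library a side.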

How the results depend on the processing

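Counts moved with the threshold while rises outnumbered falls in every alternative run. Higher and lower introns numbered 1980 and 117 at a depth minimum of 50, 5384 and 866 at 5 points, 1392 and 60 at 20 points, 7859 and 1375 with a 2-fold rule and a pseudocount of 0.01, 1402 and 113 without introns that carry a warning, and 646 and 85 with the deepest intron of each gene. With the interval required beyond 0, 2479 rises and 152 falls were left, and with differences centred on their median there were 2637 and 400. The share higher at 200 to 500 bases was 10.7% at a depth minimum of 50, 8.24% with 1 intron per gene and 17.1% where flanking GC was over 60%. Over all annotated introns it was 4.05%, against 42.8% up to 80 bases. The exact share was lower in 601 and higher in 47 introns with at least 50 spliced reads, 440 and 35 at 20 points, and higher in 75 with the interval beyond 0. With spliced reads recovered from the deposited ratio it was lower in 1572 and higher in 136 of 14232 introns. Genes past 1.5-fold numbered 1575 higher and 1144 lower. Lists above the overall share numbered 15, 11 and 12 at a depth minimum of 50, 5 points and 1 intron per gene. With exact spliced reads in the ratio, AP1G2 intron 13 differed by 78.8 points and PUS7 intron 5 by 48.3. No named difference among 22 introns changed sign. Only exact spliced reads and centring were applied to them, and these introns were chosen for large differences, so a sign change could hardly occur. Intron GC classes were not run. No paired analysis was possible because each group had 1 library. Depth limits single falls, of which 152 of 298 had an interval below 0.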
